A study of Mus musculus with 8 samples.

Results

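Hepatic expression of 5 genes of ketone body metabolism was examined, namely Acat1, Bdh1, Oxct1, Slc16a1 and Slc16a6. They were picked by symbol through their mouse Ensembl identifiers, out of 52636 genes counted in each library, and all 5 passed the filter on low counts that left 15248 genes to test. The livers came from 8 wild-type male C57BL/6J mice, 4 given AAV8-TBG-GFP and 4 given AAV8-TBG-AGXT (hereafter AAV8-GFP and AAV8-AGXT). AAV8 is a liver-tropic adeno-associated virus, and the TBG promoter drives its cargo in hepatocytes, here green fluorescent protein or human alanine-glyoxylate aminotransferase, an enzyme that detoxifies glyoxylate. Both groups received the virus at 7 weeks of age and were kept from 8 weeks of age on a diet rich in fat, cholesterol and fructose that produces metabolic dysfunction-associated steatohepatitis (MASH), for 24 weeks. No mice without virus and no mice on chow were analysed here, so every value below is a difference between treatments within diseased livers. Animal numbers identify the mice, and the AAV8-GFP animals were 303, 311, 314 and 315 while the AAV8-AGXT animals were 308, 309, 316 and 319.

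Ketone bodies are made in hepatocyte mitochondria from the acetyl-CoA of fatty acid oxidation, leave the hepatocyte through monocarboxylate transporters and are burnt in heart, muscle and brain. Acat1 encodes the mitochondrial acetoacetyl-CoA thiolase, which joins acetyl-CoA units on the way to ketone bodies and also cleaves acetoacetyl-CoA and the last intermediate of isoleucine breakdown. Bdh1 encodes 3-hydroxybutyrate dehydrogenase, the enzyme that interconverts acetoacetate and 3-hydroxybutyrate. Oxct1 encodes the CoA transferase that activates acetoacetate with succinyl-CoA for oxidation, and hepatocytes are known for lacking it. Slc16a1 encodes MCT1, a proton-coupled carrier of lactate, pyruvate and ketone bodies, and Slc16a6 encodes MCT7, a carrier linked to the release of ketone bodies from the liver.

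Each AAV8-GFP library held 19747909 to 28780140 read pairs on genes and each AAV8-AGXT library 17095433 to 23940200. Mouse 308 had the lowest share of read pairs on genes, 56.3%, against 62.4% or more in the other mice. Levels are counts-per-million (CPM) after scaling by the trimmed mean of M values (TMM), and a gene counts as called where the quasi-likelihood test of edgeR left its p, adjusted over all tested genes, under 0.05. By this rule 2.45% of tested genes were called higher and 1.9% were called lower in AAV8-AGXT mice, while 26.2% of tested genes had an unadjusted p under 0.05. The tissue carried the transcripts of hepatocytes, with albumin (Alb) between 25900 and 43400 CPM in every mouse. The human transgene has no row in the mouse annotation, so its level could not be checked directly. Mouse Agxt averaged 164 ± 15.8 CPM in controls and 305 ± 98.3 CPM with AAV8-AGXT (SD, n = 4 each), and how far read pairs of the human transcript were counted on it was not tested.

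The log2 fold changes of the 5 genes pointed both ways, positive for Acat1 and Bdh1 and negative for Oxct1, Slc16a1 and Slc16a6. Slc16a6 was the 1 member of 5 that was called, and it fell, to 0.633 of its AAV8-GFP level. Acat1 had 1.4 times its AAV8-GFP level with no overlap between the groups after TMM scaling but missed the adjusted threshold, Bdh1 stood at 1.19 times, Slc16a1 at 0.939 times, and Oxct1, the scarcest of the 5 per kilobase of transcript, at 0.558 times. None of these other 4 was called by edgeR. Beside the 2.45% and 1.9% of all tested genes given above, 1 call among 5 genes is too few for a statement about the group.

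**Figure D1:**
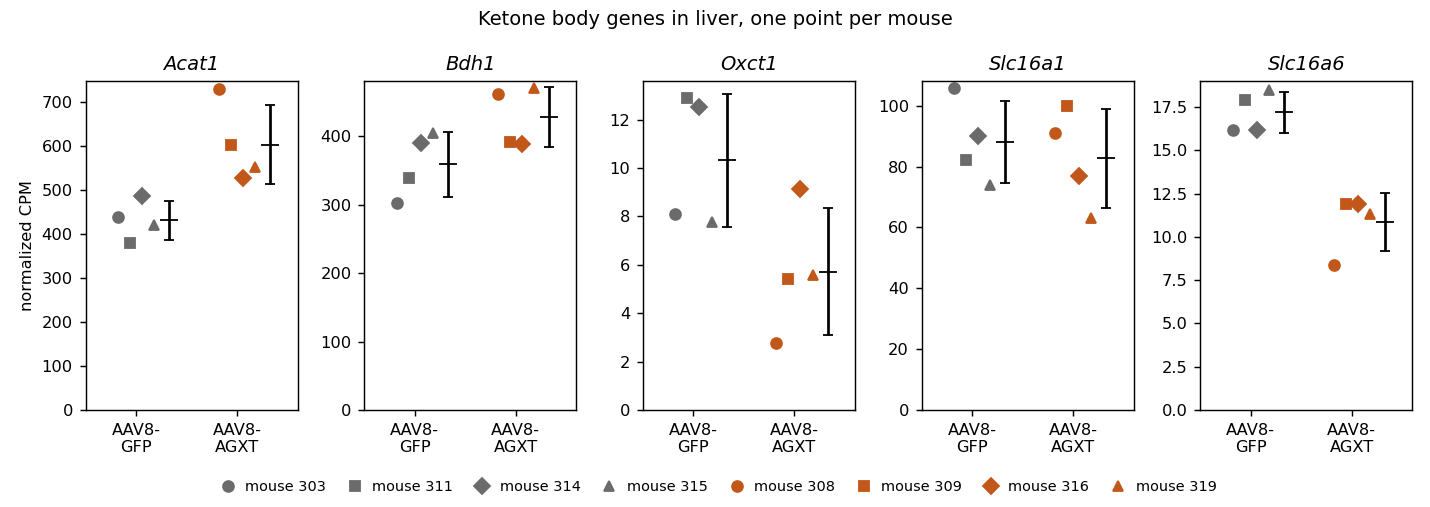
Normalized CPM (vertical axes, each starting at 0) of the 5 genes in each mouse, with AAV8-GFP in grey and AAV8-AGXT in orange; bars give the mean and SD of 4 mice. The groups separate for Acat1 (529 CPM or more against 488 or less) and for Slc16a6 (11.9 or less against 16.2 or more) and overlap for the other 3 genes.

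Acat1 (ENSMUSG00000032047) lies on the minus strand of chromosome 9, at 53580522 to 53610382 in GRCm38. Its level was 439, 381, 488 and 420 CPM in AAV8-GFP mice 303, 311, 314 and 315, and 731, 602, 529 and 554 CPM in AAV8-AGXT mice 308, 309, 316 and 319. After TMM scaling every AAV8-AGXT mouse thus lay above every AAV8-GFP mouse, with mouse 308 the highest and mouse 316 closest to the control range. The separation depended on that scaling, with TMM factors of 1.02 to 1.14 in AAV8-GFP and 0.83 to 1.0 in AAV8-AGXT mice. As a share of read pairs on genes, Acat1 in control mouse 314 (10571 of 19747909) exceeded that in AAV8-AGXT mouse 319 (11740 of 23940200). The group means were 432 ± 44.4 and 604 ± 90.1 CPM (SD, n = 4 each). The log2 fold change was 0.48 ± 0.14 (SE), with a 95% interval from 0.17 to 0.80, and edgeR's adjusted p was 0.077. A two-sided exact permutation test on the group means of log2 CPM gave p = 0.0286, the smallest value that 4 mice against 4 allow. Groups that do not overlap in this direction were found for 8.93% of all tested genes. The Wald test of DESeq2 did call the gene, with a log2 fold change of 0.47 and an adjusted p of 0.0098, in a setting in which 6.29% of tested genes were called higher and 6.11% lower, while the other alternatives gave adjusted p values from 0.068 to 0.225. With library totals in place of TMM, the log2 fold change was 0.24 and the adjusted p was 0.199 in edgeR.

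Bdh1 (ENSMUSG00000046598; chromosome 16, 31422280 to 31458901, plus strand) measured 302, 339, 390 and 405 CPM in AAV8-GFP mice 303, 311, 314 and 315. In AAV8-AGXT mice 308, 309, 316 and 319 it measured 462, 392, 388 and 470 CPM. Mice 309 and 316 fell among the controls and only mice 308 and 319 exceeded all of them. The means were 359 ± 47.4 and 428 ± 44.1 CPM (SD, n = 4 each), which makes the log2 fold change 0.25 ± 0.14 (SE) with a 95% interval from -0.05 to 0.56 and an adjusted p of 0.27 in edgeR. The exact permutation test gave p = 0.143, so a difference between treatments was not resolved from the spread between mice, and the interval reaches from 0.965 to 1.47 times the control level. The antisense transcript Gm15743 shares 13.7% of the exon bases of Bdh1. It had at most 16 read pairs in any mouse against at least 6517 for Bdh1. These counts cannot show whether read pairs in the shared bases were credited to neither gene.

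Oxct1 (ENSMUSG00000022186; chromosome 15, 4026383 to 4155344, plus strand) was scarce in every liver. Its level was 8.08, 12.9, 12.5 and 7.76 CPM in AAV8-GFP mice 303, 311, 314 and 315, and 2.76, 5.41, 9.14 and 5.57 CPM in AAV8-AGXT mice 308, 309, 316 and 319. Mice 308, 309 and 319 lay below all controls, whereas mouse 316 lay among them. The means were 10.3 ± 2.77 and 5.72 ± 2.62 CPM (SD, n = 4 each). The log2 fold change of -0.84 ± 0.32 (SE) was the largest of the 5 in size and also the least precise, with a 95% interval from -1.56 to -0.12 and an adjusted p of 0.138 in edgeR (exact permutation test on log2 CPM, p = 0.0857). The lowest value rests on 40 read pairs, and counting error alone places it between 1.97 and 3.76 CPM (exact 95% Poisson interval), far narrower than the spread between mice. Without mouse 308 the log2 fold change was -0.63 and without mouse 316 it was -1.16, and neither was called. BC037032, which overlaps 12.6% of the exon bases of Oxct1, had at most 4 read pairs in a mouse. That count cannot show whether read pairs in the shared bases were credited to neither gene.

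Slc16a1 (ENSMUSG00000032902; chromosome 3, 104638668 to 104658462, plus strand) had 106, 82.3, 90.1 and 74.1 CPM in AAV8-GFP mice 303, 311, 314 and 315. It had 91.1, 100.0, 77.0 and 63.0 CPM in AAV8-AGXT mice 308, 309, 316 and 319. The groups were interleaved, with the highest value in a control and the lowest in an AAV8-AGXT mouse. The means of 88.2 ± 13.7 and 82.8 ± 16.3 CPM (SD, n = 4 each) gave a log2 fold change of -0.09 ± 0.16 (SE) and an adjusted p of 0.763 in edgeR (exact permutation test, p = 0.629). The 95% interval, 0.73 to 1.21 times the control level, leaves room for a moderate change in either direction.

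Slc16a6 (ENSMUSG00000041920; chromosome 11, 109450855 to 109473598, minus strand) had 16.2, 17.9, 16.2 and 18.5 CPM in AAV8-GFP mice 303, 311, 314 and 315. In AAV8-AGXT mice 308, 309, 316 and 319 it had 8.35, 11.9, 11.9 and 11.3 CPM. The controls were tightly grouped, and all 4 AAV8-AGXT mice lay below them, mouse 308 farthest. The means were 17.2 ± 1.19 and 10.9 ± 1.70 CPM (SD, n = 4 each). The log2 fold change was -0.66 ± 0.14 (SE), with a 95% interval from -0.96 to -0.36 and an adjusted p of 0.037 in edgeR, and the exact permutation test gave p = 0.0286. Groups that do not overlap in this direction were found for 7.63% of all tested genes. The call held under each of the 7 other tests, normalizations and filters tried but was lost with any 1 of 7 mice left out, when adjusted p values ran from 0.0502 to 0.137, and was kept, at 0.0448, only without mouse 309. The log2 fold change itself stayed between -0.72 and -0.57 over all 8 of these fits.

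The exons of Slc16a6 share 1052 bases, 21.5% of its exon length, with Amz2, a metalloprotease gene on the opposite strand. The strand setting of the counting is not given in the sources used here, so read pairs in the shared bases may have been credited to neither gene or to the wrong one. Amz2 itself averaged 15.8 ± 1.45 CPM in controls and 14.8 ± 1.84 CPM with AAV8-AGXT (SD, n = 4 each), and its log2 fold change was -0.09 with an adjusted p of 0.688 in edgeR. Arsg overlaps a further 48 bases of Slc16a6 and the microRNA gene Gm25540 overlaps 49. No exon of another annotated gene overlaps Acat1 or Slc16a1.

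**Figure D2:**
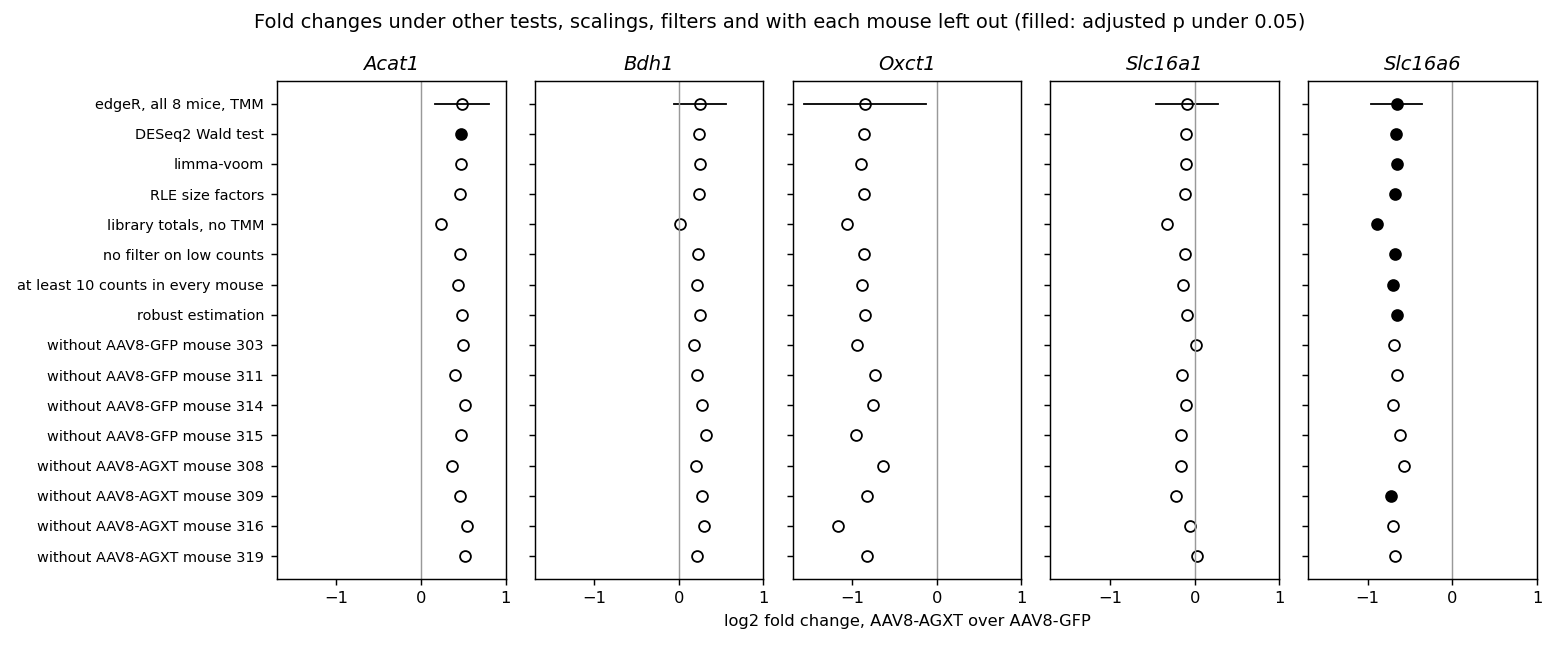
Log2 fold change of AAV8-AGXT over AAV8-GFP (horizontal axes) for each gene under the fits listed on the vertical axis; filled points had an adjusted p under 0.05 and horizontal lines on the top row give the 95% interval. Slc16a6 stays between -0.89 and -0.57, Acat1 between 0.24 and 0.55, and Slc16a1 lies on either side of 0.

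Divided by transcript length, the genes spanned a wide range of levels, in the order Acat1, Bdh1, Slc16a1, Slc16a6 and Oxct1. Per kilobase of exon, Acat1 averaged 138 CPM and Bdh1 averaged 101 CPM over the 8 mice, above 97.4% and 96.6% of the tested genes. Slc16a1 averaged 19.3 CPM per kilobase, above 85.3% of tested genes. Slc16a6 averaged 2.88 CPM per kilobase and Oxct1 averaged 2.17, both below the midpoint of tested genes. The first 3 places were the same in each of the 8 libraries. Slc16a6 and Oxct1 were too close to be ordered, since Oxct1 was the higher of them in mice 314 and 316 and Slc16a6 in the other mice. Between the mouse with the highest and the mouse with the lowest value, Bdh1 varied 1.56 times, Slc16a1 1.69 times, Acat1 1.92 times, Slc16a6 2.22 times and Oxct1 4.66 times. Within groups the coefficient of variation was lowest for Slc16a6 in controls (6.93%) and highest for Oxct1 in AAV8-AGXT mice (45.8%).

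Ratios of counts between the genes within a library do not depend on how libraries are scaled, and all 10 pairs were computed after the levels had been seen. Acat1 read pairs outnumbered those of Slc16a6 by 21.3 to 30.1 times in AAV8-GFP mice and by 44.4 to 87.5 times in AAV8-AGXT mice. The thiolase also outnumbered the carrier Slc16a1 by 4.13 to 5.67 times in controls and by 6.01 to 8.8 times in AAV8-AGXT mice. Against Oxct1 the same comparison gave 29.6 to 54.3 times and 57.8 to 265 times. Bdh1 read pairs outnumbered those of Slc16a6 by 18.6 to 24.1 times and by 32.6 to 55.3 times. The groups did not overlap for any of these ratios (p = 0.0286, unadjusted, in a two-sided exact permutation test of each). Each of these ratios holds Acat1 or Slc16a6, whose groups separated singly after TMM scaling, so they are not independent results. How often ratios of other gene pairs separate was not tested. The ratio of the 2 enzymes, Acat1 to Bdh1, ran from 1.04 to 1.45 in controls and from 1.18 to 1.58 in AAV8-AGXT mice and overlapped (exact permutation test, p = 0.2), as did the 5 remaining pairs, with unadjusted p values from 0.0571 to 0.486. A ratio shows that the genes in it changed unequally, not which of them changed.

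**Figure D3:**
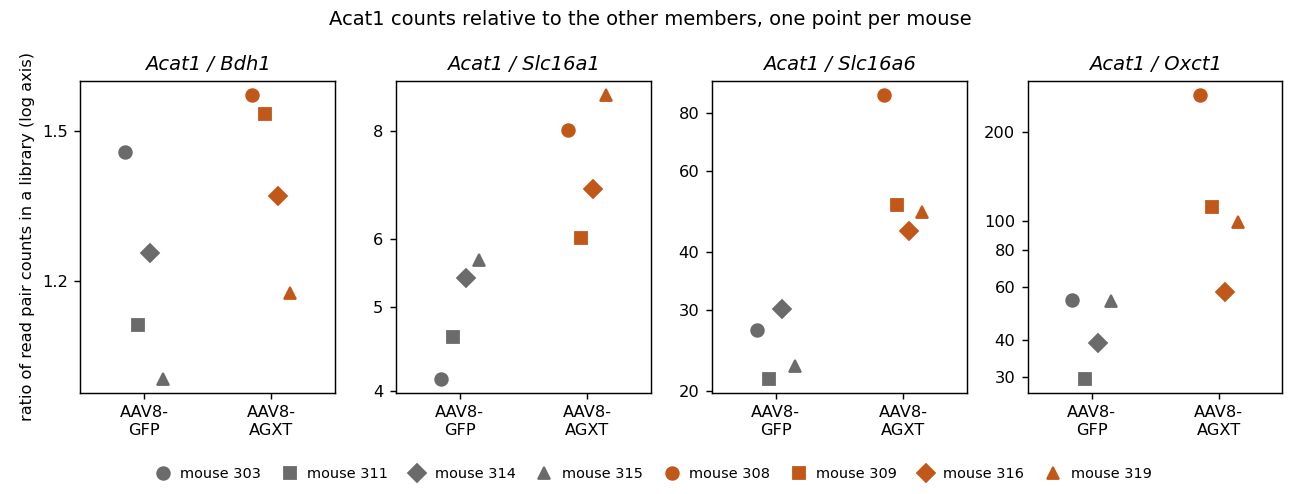
Acat1 read pairs divided by those of each other gene in the same library (log axes), 1 point per mouse. The groups overlap for Acat1 over Bdh1 and separate for Acat1 over Slc16a1, Slc16a6 and Oxct1, with mouse 308 highest for the last 2.

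Other genes of the pathway were taken as 5 lists of companions. Across all 15248 tested genes the median log2 fold change was 0.018, 52.3% of the values were positive, and edgeR called 2.45% higher and 1.9% lower. Of genes for ketone interconversion and use, 5 of 8 were tested, of which 1 was called higher and 0 lower, with a median log2 fold change of 0.37. The called gene was Acss2, the cytosolic acetyl-CoA synthetase, which had 34.8 to 39.0 CPM in AAV8-GFP mice and 50.8 to 52.2 CPM in AAV8-AGXT mice (log2 fold change 0.46, adjusted p = 0.029 in edgeR). Aacs, the cytosolic enzyme that activates acetoacetate for lipid synthesis, ranged from 18.2 to 103 CPM over the AAV8-AGXT mice, which included the whole control range of 21.2 to 56.3 CPM. Bdh2, a cytosolic relative of Bdh1, was at 4.95 ± 2.08 and 4.59 ± 1.53 CPM (SD, n = 4 each), with -0.11 as its log2 fold change. The mitochondrial acetyl-CoA synthetase Acss1, at 2.20 ± 0.776 and 0.930 ± 0.323 CPM, and Acss3, at 3.60 ± 0.532 and 6.74 ± 2.62 CPM (SD, n = 4 each), were not called by edgeR, and Acss3 shares 33.9% of its exon bases with Ppfia2. Of the Oxct1 paralogs, Oxct2a had no read pair in any mouse and Oxct2b had at most 0.490 CPM.

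Of the thiolases other than Acat1 all 7 were tested, 6 had a positive log2 fold change, 1 was called higher and 0 lower, and the median was 0.58. Hadhb, the thiolase subunit of the mitochondrial trifunctional protein, had 199, 190, 237 and 184 CPM in AAV8-GFP mice 303, 311, 314 and 315, and 376, 313, 253 and 330 CPM in AAV8-AGXT mice 308, 309, 316 and 319. The groups did not overlap after TMM scaling, as for 8.93% of all tested genes in this direction. Hadhb was called (log2 fold change 0.65, adjusted p = 0.043 in edgeR). As a share of read pairs on genes, Hadhb in control mouse 314 (5129 of 19747909) exceeded that in AAV8-AGXT mouse 316 (4930 of 19481527). With library totals in place of TMM the call was lost (log2 fold change 0.40, adjusted p = 0.072 in edgeR). The peroxisomal thiolases Scp2 (2300 ± 273 and 3440 ± 399 CPM), Acaa1a (350 ± 34.1 and 560 ± 142 CPM) and Acaa1b (1910 ± 325 and 2980 ± 1080 CPM) and the mitochondrial Acaa2 (827 ± 50.8 and 1190 ± 227 CPM; SD, n = 4 for each) had log2 fold changes from 0.53 to 0.68 and adjusted p values from 0.061 to 0.132. The log2 fold change of Acat1, 0.48, lay below those of these 5 genes and above those of Acat2, the cytosolic acetoacetyl-CoA thiolase, at 0.05, and of Acat3, at -0.31 (adjusted p = 0.204 in edgeR). Acaa1a and Acaa1b are close paralogs, and Acat2 and Acat3 are as well, so the division of read pairs within each pair is uncertain.

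Of 16 further monocarboxylate carriers and their chaperones, 12 were tested and 0 were called in either direction by edgeR, where 4 were higher and 2 lower at an unadjusted p under 0.05 (26.2% of all tested genes), while DESeq2 called 4. Their median log2 fold change was 0.13. Bsg, the chaperone basigin that brings MCT1 to the cell surface, had 529 ± 21.6 CPM in controls and 488 ± 43.7 CPM with AAV8-AGXT (SD, n = 4 each), with -0.12 as its log2 fold change. Slc16a10, a carrier of aromatic amino acids, had 74.5 ± 18.6 and 120 ± 12.7 CPM (SD, n = 4 each; log2 fold change 0.68, adjusted p = 0.052 in edgeR). Its groups did not overlap after TMM scaling, as for 8.93% of all tested genes in this direction. As a share of read pairs on genes, Slc16a10 in control mouse 315 (2282 of 22228093) exceeded that in AAV8-AGXT mouse 319 (2217 of 23940200). Slc16a7, the lactate and pyruvate carrier MCT2, had 84.3 ± 16.1 and 90.1 ± 14.5 CPM (SD, n = 4 each).

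Succinyl-CoA is the cosubstrate of Oxct1, and Acat1 performs the last step of isoleucine breakdown. The list for these routes had all 12 genes tested, with a median log2 fold change of 0.48. Of these, 6 were called higher and 0 lower, beside 2.45% and 1.9% of all tested genes. Hsd17b10, which acts just ahead of Acat1 on isoleucine carbon, had 240, 160, 167 and 160 CPM in AAV8-GFP mice 303, 311, 314 and 315 and 548, 284, 348 and 359 CPM in AAV8-AGXT mice 308, 309, 316 and 319. It had the largest log2 fold change of this list, 1.08 (adjusted p = 0.036 in edgeR), and every AAV8-AGXT mouse exceeded every control. Acadsb, the dehydrogenase of the branched acyl-CoA from isoleucine, went from 63.5 ± 8.10 to 95.3 ± 10.8 CPM (SD, n = 4 each; adjusted p = 0.038 in edgeR). Sucla2 and Suclg1, subunits of succinyl-CoA synthetase, had log2 fold changes of 0.60 and 0.64 (adjusted p = 0.034 and 0.045 in edgeR), whereas the subunit Suclg2 had -0.04. Dlst, the succinyltransferase of the oxoglutarate dehydrogenase complex, and Bckdha, a subunit of the branched-chain ketoacid dehydrogenase, had 0.52 and 0.67 (adjusted p = 0.044 and 0.045 in edgeR). The exons of Bckdha overlap those of B3gnt8 over 61.7% of their length, which leaves its value uncertain. Echs1, Ogdh and Bckdhb, with log2 fold changes of 0.39, 0.24 and 0.08, were not called.

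Regulators of ketogenesis had positive log2 fold changes in 11 of 11 tested genes, with a median of 0.48. Of these, 4 were called higher and 0 lower, beside 2.45% and 1.9% of all tested genes. Ppara, the nuclear receptor that activates the genes of fatty acid oxidation and ketogenesis, had 44.7, 37.6, 49.5 and 41.3 CPM in AAV8-GFP mice 303, 311, 314 and 315 and 95.9, 62.8, 59.4 and 102 CPM in AAV8-AGXT mice 308, 309, 316 and 319 (log2 fold change 0.89, adjusted p = 0.038 in edgeR). Cpt1a, which admits fatty acids to the mitochondria, went from 493 ± 74.6 to 818 ± 102 CPM, and Sirt3, a mitochondrial deacetylase, from 45.3 ± 3.13 to 63.0 ± 4.47 CPM (SD, n = 4 each; adjusted p = 0.037 and 0.035 in edgeR). Rptor, a component of the mTORC1 complex that is known to restrain ketogenesis, was also called higher (log2 fold change 0.55, adjusted p = 0.041 in edgeR). The list therefore holds called activators and a called inhibitor. The partner receptor Rxra (352 ± 49.4 and 561 ± 106 CPM), the corepressor Ncor1 (80.2 ± 3.50 and 94.1 ± 12.9 CPM), Mtor (66.6 ± 15.2 and 88.9 ± 11.4 CPM) and its inhibitor Tsc2 (50.7 ± 3.54 and 55.0 ± 2.29 CPM; SD, n = 4 for each) were not called. Each of the 12 called companions lost its call with at least 5 of the 8 mice left out in turn. These lists were drawn up with results of these mice known, so their counts are not independent evidence of a direction.

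**Figure D4:**
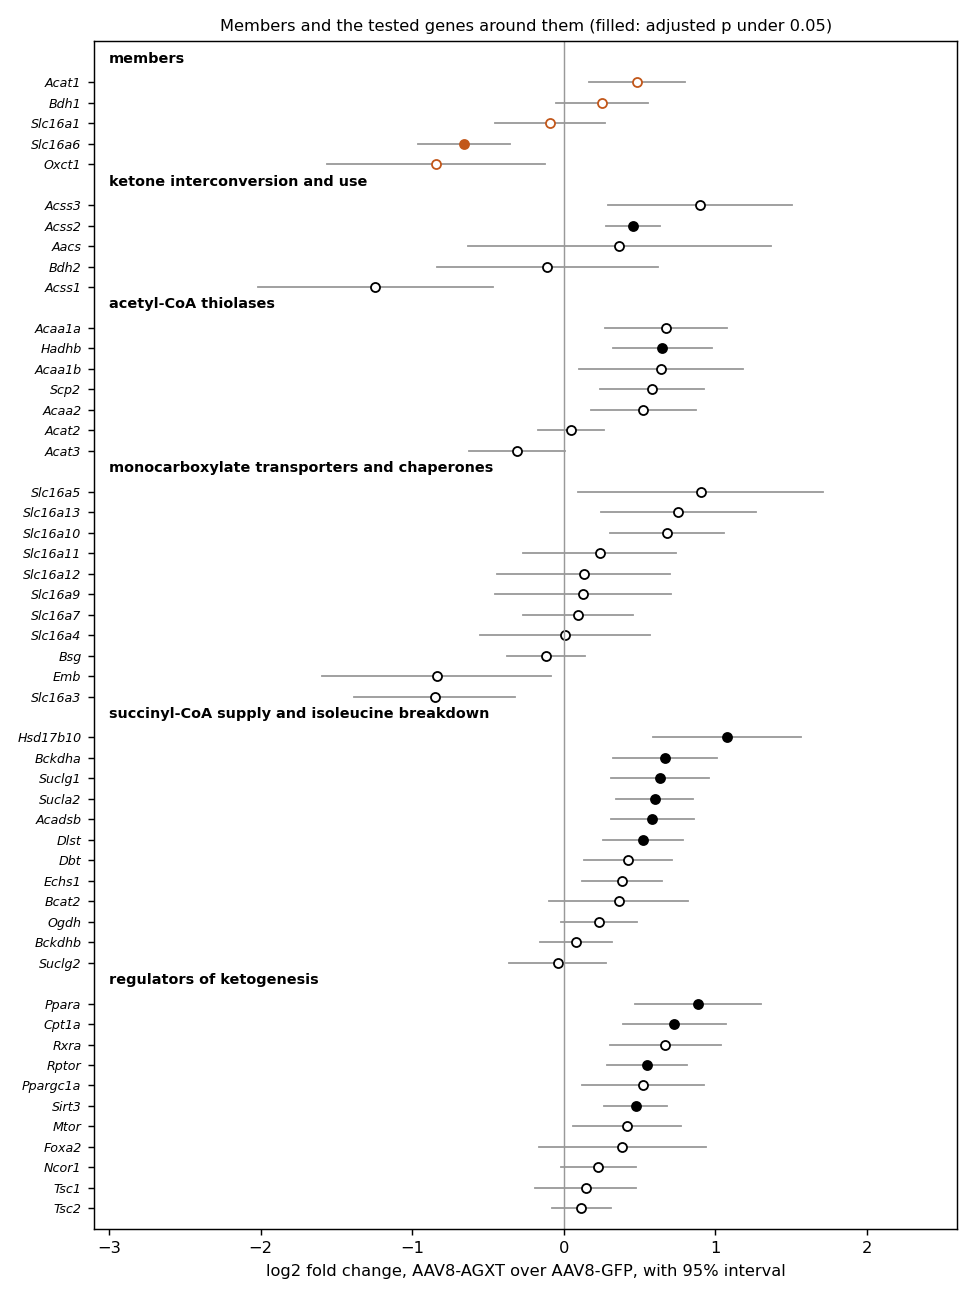
Log2 fold change of AAV8-AGXT over AAV8-GFP with its 95% interval (horizontal axis) for the 5 genes, headed members and drawn in orange, and for tested companions in their lists; filled points had an adjusted p under 0.05. Slc16a6 is the only filled point left of 0, and the 12 filled companions lie right of 0.

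Some cell type markers differed between the treatments, and bulk RNA cannot tell fewer cells of a type from less RNA per cell. The 7 matched hepatocyte markers all had positive log2 fold changes (median 0.46; 0 called by edgeR, 4 at an unadjusted p under 0.05), and their sum ran from 50500 to 59500 CPM in AAV8-GFP mice and from 60300 to 88000 CPM in AAV8-AGXT mice. The separation of these sums depended on TMM scaling. The 6 proliferation markers all had negative log2 fold changes, and 4 were called lower (Mki67, Cdk1, Ccnb1 and Ube2c), beside 1.9% of all tested genes. The sum of the 6 ran from 23 to 39.3 CPM and from 4.83 to 13.3 CPM. The 12 macrophage markers went both ways. Cd9 was called lower, and at an unadjusted p under 0.05 there were 4 lower and 2 higher genes. The higher ones were Marco (0.554 to 5.65 and 5.94 to 156 CPM, without overlap only after TMM scaling) and Timd4 (0.507 to 1.47 and 1.34 to 13.6 CPM), both highest in mouse 319. The sums of the list, 522 to 787 and 261 to 984 CPM, overlapped. Of 10 stellate cell and fibroblast markers 1 was called lower, Acta2, with 8 of 10 log2 fold changes negative and sums of 574 to 1020 and 262 to 659 CPM. At an unadjusted p under 0.05 (26.2% of all tested genes) were 7 of these 10, each lower. For 5 of them the groups did not overlap (7.63% of all tested genes in this direction). In edgeR 0 of the lymphocyte markers (16.0 to 24.2 and 8.15 to 16.6 CPM), neutrophil markers (20.7 to 33.2 and 6.97 to 22.4 CPM), cholangiocyte markers (226 to 678 and 74.9 to 275 CPM) and endothelial markers (293 to 427 and 270 to 492 CPM) were called, and their sums overlapped. Most of the cholangiocyte sum came from Spp1 alone (201 to 611 and 60.3 to 239 CPM). At an unadjusted p under 0.05, which 26.2% of all tested genes had, were 2 of 10 lymphocyte, 1 of 4 neutrophil, 6 of 7 cholangiocyte and 0 of 8 endothelial markers, each of them lower. The 5 erythroid markers all had positive log2 fold changes. They summed to 86.4 to 145 and 114 to 302 CPM, with 0 called by edgeR and 2 at an unadjusted p under 0.05, both higher. Among adipocyte markers Adipoq and Lep stayed under 0.1 CPM in all mice. The 6 muscle markers summed to 1.25 to 2.38 and 0.961 to 2.55 CPM, of which Mylpf had 0.661 to 1.98 CPM and Tnnt2 0.138 to 1.10 CPM, while Ckm, Mb and Myh6 stayed under 0.1 CPM. The single tested adipocyte marker, Cidec, and the 2 tested muscle markers were not called.

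Oxct1 and Slc16a6 were lowest in mouse 308, the mouse with the highest hepatocyte marker sum and the lowest macrophage, lymphocyte, neutrophil, stellate, cholangiocyte and proliferation sums. In mouse 316, the AAV8-AGXT mouse with the highest Oxct1, the lymphocyte and proliferation sums (16.6 and 13.3 CPM) were also the highest of the group, whereas the macrophage, neutrophil, stellate and cholangiocyte sums (606, 15.4, 613 and 242 CPM) were not. Slc16a6 was at 8.35 CPM in mouse 308 and at 11.3 to 11.9 CPM in the other 3 AAV8-AGXT mice, all below the controls, so its separation did not rest on that mouse, although the call was lost without it (adjusted p = 0.0502 in edgeR). How much of any difference came from the makeup of the tissue was not tested.

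Set against the 7 hepatocyte markers, the values shifted. After TMM the per-mouse mean log2 CPM of these markers ran from 11.661 to 11.923 in AAV8-GFP and from 11.932 to 12.545 in AAV8-AGXT mice. The groups thus nearly touched, and their separation depended on TMM. The factors were 1.02 to 1.14 in AAV8-GFP and 0.83 to 1.0 in AAV8-AGXT mice. Undoing them raises the highest control mean and lowers or barely changes the lowest AAV8-AGXT mean, so the ranges then overlap. With TMM, the mean was 0.42 higher in AAV8-AGXT mice (two-sided exact permutation test, p = 0.0286). Relative to it, the log2 difference of Acat1 came to 0.06 (exact permutation test, p = 0.686) and that of Bdh1 turned negative, to -0.16 (p = 0.257 in the same exact test). Slc16a6 came to -1.09 with no overlap (exact permutation test, p = 0.0286), Oxct1 to -1.35 (p = 0.0857) and Slc16a1 to -0.52 (p = 0.114). The share of all tested genes without overlap on this scale was not computed. This scaling lowers every gene alike, by 0.42 on average, and puts the median of all tested genes at -0.41. The smaller value of Acat1, the turned sign of Bdh1 and the larger value of Slc16a6 follow from that shift.

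**Figure D5:**
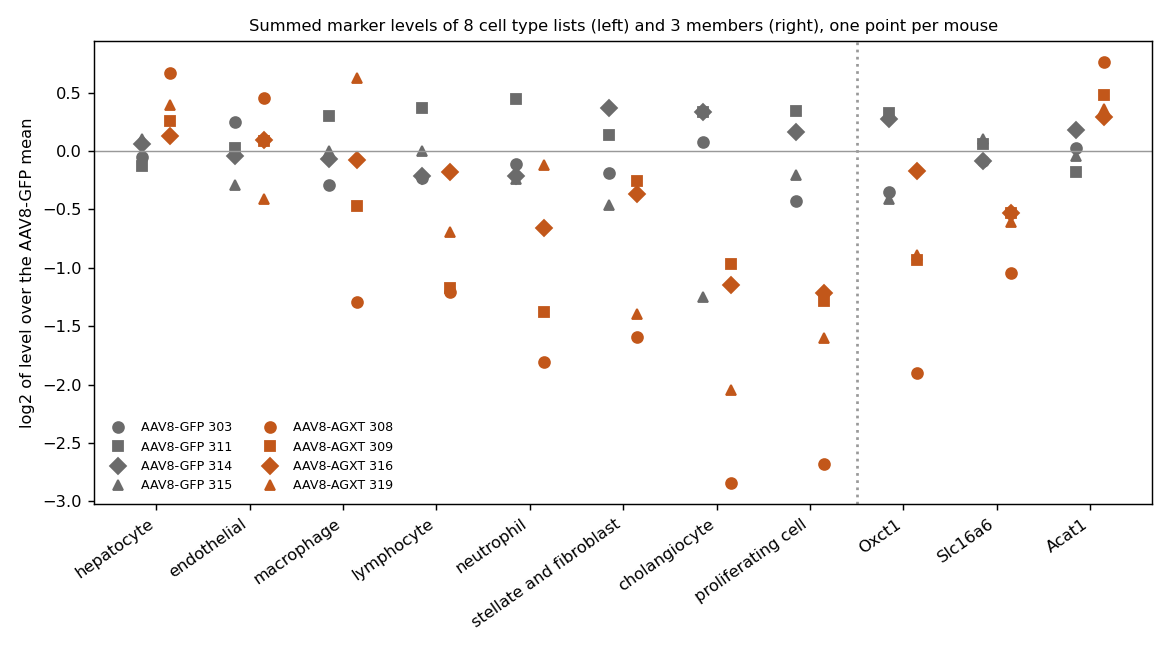
Summed CPM of 8 marker lists (left of the dotted line) and the CPM of Oxct1, Slc16a6 and Acat1 (right), each as log2 of the value over its AAV8-GFP mean (vertical axis), 1 point per mouse. Mouse 308 (orange circles) is at the top or bottom of every column. All 4 AAV8-AGXT mice lie below all controls for proliferating cells and Slc16a6. They lie above all controls for hepatocytes and Acat1, which depended on TMM scaling.

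The genes whose log2 CPM tracked each member most closely over the 8 mice differed from member to member, and no p is given because each r is the highest among all tested protein-coding genes and the mice fall in 2 groups. For Acat1 these were Ces1d, Tmem135 and Ndufs1 (Pearson r 0.975 to 0.99), and for Bdh1 Slc26a1, Hars and Gak (0.982 to 0.991). For Oxct1 they were Lat2, Tnfrsf13b and Fgd3 (0.988 to 0.992). For Slc16a6 they were Pofut2, Ifi27l2b and Traf1 (0.985 to 0.987), and for Slc16a1 Plcb4, Hoxa5 and Ppp2r3a (0.951 to 0.972).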

How the data were processed

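Liver RNA of 8 mice, 1 stranded mRNA library each, was sequenced by the authors as read pairs of 76 bases, trimmed with Trimmomatic 0.35, mapped with HISAT2 2.1.0.13 to GRCm38 and counted with HTSeq 0.6.0 on Ensembl release 90. The deposited values are raw counts per gene, whole numbers without normalization. The strand option and overlap mode of the counting are not given in the sources used here. HTSeq's tallies that name no gene were left out of library sizes (30.9% to 43.7% of tallied read pairs). Symbols, positions and exon lengths came from GENCODE M21 on the same build, which matched 52489 of 52636 genes.

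Counts were filtered with filterByExpr, scaled by TMM and tested with edgeR 4.0.16 in R 4.3.3 (glmQLFit, not robust, with treatment alone in the model), with Benjamini-Hochberg adjustment over 15248 genes. SD values are over mice, the 4 of each group being separate animals, and the common biological coefficient of variation was 23.3%. For single values, all 70 arrangements of the mice gave an exact permutation test, two-sided, on log2 CPM (prior count 2). Intervals on counts cover counting error only. Alternatives were DESeq2 1.42.0 (the authors' tool), limma-voom (limma 3.58.1), RLE size factors, library totals, no count filter, at least 10 counts in every mouse, robust estimation, each mouse left out, and longest transcripts for length. The ratios and the hepatocyte marker scaling were added after seeing the data.

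The 5 genes, the companion and marker lists (hepatocyte, macrophage, lymphocyte, neutrophil, endothelial, stellate and fibroblast, cholangiocyte, proliferating cell, erythroid, adipocyte, skeletal and heart muscle) and the tests were chosen with earlier results of these data known. Genes named were the 5, companions past the test with up to 4 others of highest mean CPM per list, markers past the test, markers at 0 or under 0.1 CPM in all mice where their absence is stated, the 3 closest genes in pattern, mouse Agxt and overlapping genes. Acat2, Acat3, Oxct2a, Oxct2b, Alb, Cidec, Marco, Timd4, Spp1, Mylpf and Tnnt2 fall outside this rule and were named after their values were seen. Single values of some genes of the route and of the companion lists are left out here, and genes in a list still count towards it.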

Additional observations from a re-analysis of the deposited data

Results flagged for a closer look

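In groups of 4 mice, 1 mouse stood far from the other 3 for some of the genes named above, by Dixon's test at the 95% level for the gap to the nearest mouse relative to the group's range. Of 72 groups examined, which were 36 genes in 2 treatments, 8 were singled out, and chance alone singles out about 1 group in 20. Slc16a6 in AAV8-AGXT mouse 308 was 8.35 CPM, against 11.3 to 11.9 CPM in the other 3. Without that mouse its log2 fold change was -0.57 with an adjusted p of 0.0502 in edgeR.

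The other 7 were companions. In AAV8-GFP mouse 303, Dlst was at 202 CPM (next highest 174), Hsd17b10 at 240 CPM (next highest 167) and Mtor at 89.1 CPM (next highest 61.8). In AAV8-GFP mouse 315, Bdh2 was at 8.07 CPM, against 4.10 CPM in the next. In AAV8-AGXT mouse 308, Acaa1b was at 4590 CPM (next highest 2580), and in mouse 319 Mtor was at 106 CPM (next highest 84.0). In AAV8-AGXT mouse 316, Scp2 was at 2850 CPM, against 3580 CPM in the next lowest mouse.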

How the results depend on the processing

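Of the 5 genes, Acat1, Bdh1, Oxct1 and Slc16a6 kept their direction under the 15 other tests, scalings, filters and fits without a mouse, and setting Bdh1 against hepatocyte markers, which puts the median of all genes at -0.41, gave -0.16. DESeq2 called 2 of the 5 (Acat1 at a log2 fold change of 0.47, besides Slc16a6), 1054 genes higher and 1024 lower, and 3, 4 and 4 genes among ketone use, thiolases and transporters. The authors reported fewer genes with DESeq2 in each direction, and the reason for the difference was not tested. Library totals moved the median of all genes by -0.24 on the log2 scale. In that fit Acat1 stood at 0.24 and Bdh1 at 0.012 (adjusted p = 0.199 and 0.95 in edgeR). Oxct1 stood at -1.06, Slc16a1 at -0.33 and Slc16a6 at -0.89. Relative to the median of all genes in the same fit, Acat1 stood at 0.46, Bdh1 at 0.23, Oxct1 at -0.84, Slc16a1 at -0.11 and Slc16a6 at -0.67. Subtracting the median removes a shift shared by all genes, so these relative values are no separate check. With these totals 144 genes were called higher and 857 lower, against 374 and 290, and list counts became 0 for thiolases, 1 for transporters, 2 for succinyl-CoA and isoleucine and 1 for regulators. The ketone use list stayed at 1 call, but Acss2 lost its call and Acss1 (-1.48) was called lower. Slc16a7 (-0.12), Bckdhb (-0.16), Ncor1 (-0.003) and Tsc2 (-0.12) turned negative. Without a count filter, thiolases had 2 calls, and transporters had 1 there, in limma-voom and with robust estimation. The cause was not tested.

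With each mouse left out, 2 to 379 genes were called higher and 0 to 325 lower, the low ends without AAV8-GFP mouse 311, where 2663 genes had an unadjusted p under 0.05. The 5 genes had 0 to 1 calls, with log2 fold changes of -0.72 to -0.57 for Slc16a6 and -0.218 to 0.025 for Slc16a1, which turned without mouse 303 or 319. List counts were 0 to 2 for ketone use, 0 to 2 for thiolases, 0 to 1 for transporters, 0 to 5 for succinyl-CoA and isoleucine and 0 to 4 for regulators. Aacs ran from -0.18 to 0.64, Bdh2 from -0.26 to 0.23, Slc16a7 from -0.021 to 0.18 and Suclg2 from -0.15 to 0.015. Over the 31 named companions, 351 of 464 values kept direction and side of the threshold, 81 lost and 20 gained a call, and 12 turned. Length by the longest transcript put Bdh1 at 124 CPM per kilobase in place of 101. The smallest count behind a value of the 5 genes was 40 read pairs, for Oxct1 in mouse 308. No paired analysis was possible because the groups share no replicate numbers.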
